A study of Nematostella vectensis with 84 samples.

Results

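The cells described here are the green and the red cells of the Elav reporter line of the starlet sea anemone, Nematostella vectensis, with the orange cells of the same line as the middle class. They were chosen from the authors' cell table by reporter line and reporter colour class. Of 12352 cells in the series, 2764 belonged to the Elav line and 1404 of these were members, 915 green and 489 red. A further 1303 cells were orange, and 57 had no colour class.

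All animals were 6 to 8 week old adults kept in the dark in artificial seawater, heterozygous for a stable transgene in which a driver named Elav, SoxC or FoxL2 controls the reporter KikGR. Bodies were cut below the pharynx, the body wall and mesenteries were dissociated, and sorted cells were sequenced 1 by 1 in the wells of plates with the MARS-seq protocol. The Elav line gave 8 dissociations, numbered 20 to 27, sampled on day 2 (20, 21 and 22), day 4 (23 and 24) and day 7 (25, 26 and 27) after photoconversion. Dissociations 22, 23, 24 and 27 carried 1% DMSO, and no treatment was stated for 20, 21, 25 and 26. All Elav cells came from 1 gate, KikGR+, so the cells describe what this transgene labels and not the whole body wall. How many animals made up a dissociation, and whether dissociations shared cultures, is not given in the sources used here, so p-values measure only the spread between these dissociations.

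The reporter protein KikGR fluoresces green when new, and violet light switches it permanently to a red form. A cell that keeps making the protein after the light pulse can hold both forms, and a cell that begins to make it afterwards holds the green form. Elav proteins are RNA-binding proteins used as neuronal markers in many animals, and in Nematostella an Elav reporter is known to label part of the nervous system. The nervous system of this animal is a diffuse net. The body wall also holds an outer epidermis, an inner gastrodermis that absorbs food and contains muscle, gland cells, and cnidocytes, the stinging cells of cnidarians.

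The table gives each cell a broad cluster (13 in all) and a fine cluster (45 in all), both named by the authors. It holds no molecule counts, so these names could not be checked against marker genes here. Elav cells came from 19 libraries of 103 to 168 cells, and a dissociation held 287 to 569. No well was listed more than once (0 duplicates). A dissociation is the replicate throughout, and a share is a percentage of cells.

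The colour mix differed widely between dissociations. On day 2 the green, orange and red shares of coloured cells were 12.9%, 50.2% and 36.9% in dissociation 20, 7.59%, 44.6% and 47.9% in dissociation 21, and 20.8%, 61.4% and 17.8% in dissociation 22. On day 4 they were 55.8%, 41.5% and 2.72% in dissociation 23 and 23.1%, 65.3% and 11.6% in dissociation 24. On day 7 they were 36.8%, 44.9% and 18.4% in dissociation 25, 45.0%, 39.1% and 15.9% in dissociation 26, and 69.8%, 28.5% and 1.74% in dissociation 27. Red was therefore scarce in dissociations 23 and 27, with 8 and 6 cells, and green was scarcest in dissociation 21, with 23 cells. The libraries of 1 dissociation differed in green share by 0.610 to 17.25 percentage points, most in dissociation 23, where they stood at 47.3% and 64.6%.

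**Figure D1:**
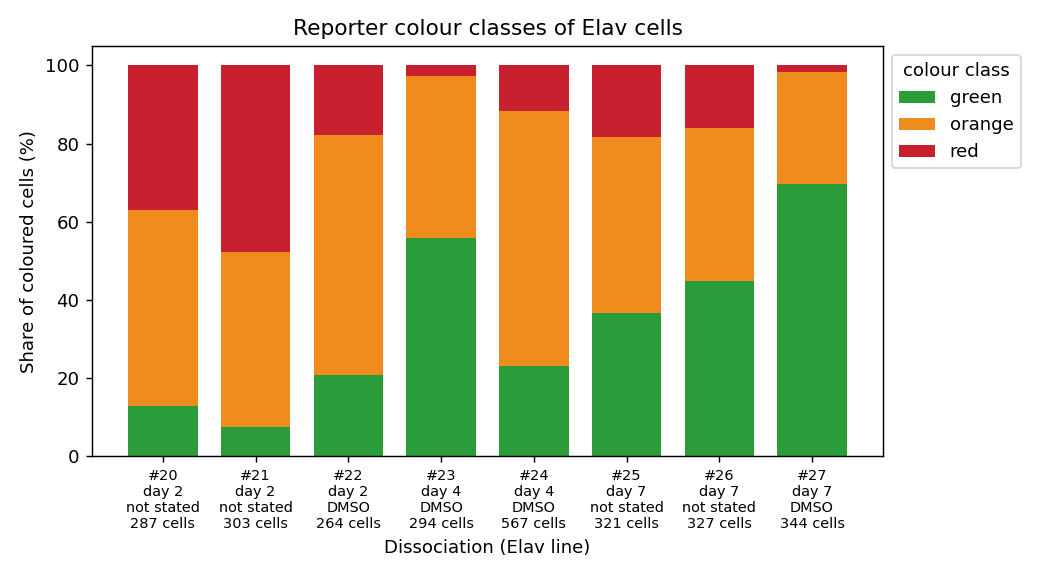
Shares of green, orange and red cells (percent of coloured cells, vertical axis) in each of the 8 Elav dissociations, ordered by day after photoconversion and marked by medium. Green ranges from 7.59% in dissociation 21 to 69.8% in dissociation 27, and red from 47.9% to 1.74% in the same dissociations.

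The green share had a slope of 7.13 percentage points per day over the 8 dissociations (two-sided exact permutation of days, 560 arrangements, p = 0.0411, adjusted p = 0.123 over the 3 colours). The slopes of orange and red were -3.05 (p = 0.134) and -4.08 (p = 0.129), with an adjusted p of 0.134 for each. None of the 3 passed the threshold of 0.05. With days permuted only among dissociations of the same medium (72 arrangements), the slopes were 7.37 for green (p = 0.0139), -3.00 for orange (p = 0.0833) and -4.37 for red (p = 0.0417), not adjusted. Within a single medium the green slope was 9.82 among the 4 DMSO dissociations and 6.12 among the other 4.

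The first comparison asked whether green and red cells of the same dissociation were made up of the same cell types. Green cells were more often gastrodermal and less often of the class Neural 2 than red cells in most dissociations, and in neither cluster did the difference pass after adjustment. Dissociations with at least 10 green and 10 red cells entered the test, which left 6 of 8 (dissociations 23 and 27 dropped out). A cluster was tested where it held at least 20 green plus red cells, which 9 of the 13 broad clusters did. The test flips the sign of the difference within each dissociation, and its smallest p with 6 dissociations is 0.03125. At least 6 of the 9 clusters would have to reach that value for any to pass. The count that passed was 0 of 9 (0%), with 0 under 0.05 before adjustment.

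Gastrodermis, the inner epithelium, made up 24.3% ± 18.5 of green cells and 10.6% ± 7.66 of red cells (SD, n = 6). In order of dissociation number (20, 21, 22, 24, 25, 26) its green shares were 18.9%, 30.4%, 43.6%, 45.0%, 4.24% and 3.40%, and its red shares 7.55%, 16.6%, 2.13%, 16.7%, 18.6% and 1.92%. Green exceeded red in 5 of 6 dissociations, the exception being dissociation 25, and the 2 sets of shares overlapped. The mean difference was 13.7 ± 19.7 points (SD, n = 6; two-sided exact sign-flip permutation test, p = 0.188, adjusted p = 0.338). It was 8.14 without dissociation 22. The difference was 34.9 in the 2 DMSO dissociations of this comparison and 3.08 in the 4 without stated treatment. By day it was 22.3 ± 16.7 (SD, n = 3) on day 2, 28.4 in the single day 4 dissociation and -6.46 ± 11.2 (SD, n = 2) on day 7. The broad cluster includes the fine cluster 8 - Gd - Parietal Muscle, with 158 of its 461 coloured cells. That part showed no green excess, with -0.303 ± 8.49 points and green higher in 3 of 6 dissociations (exact sign-flip permutation test, adjusted p = 0.938).

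Neural 2 went the other way. It made up 5.98% ± 2.97 of green cells and 15.9% ± 6.35 of red cells (SD, n = 6). Its green shares were 10.8%, 4.35%, 1.82%, 6.87%, 5.93% and 6.12%, and its red shares 8.49%, 15.9%, 12.8%, 27.3%, 13.6% and 17.3%. Red exceeded green in 5 of 6 dissociations, with dissociation 20 the exception. The mean difference was -9.89 ± 7.35 points (exact sign-flip permutation test, n = 6, p = 0.0625, adjusted p = 0.281). When green and red were compared without the pairing by dissociation, Neural 2 was the 1 cluster of 9 that passed (exact permutation test, adjusted p = 0.0390). That test treats the colours of a dissociation as independent, though they come from the same animals. It can also reach smaller p-values than the paired test, so its pass adds no support.

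Neural 1, the most abundant class with 1178 of the 2707 coloured cells, did not separate green from red in a common direction. It made up 39.8% ± 19.2 of green and 36.2% ± 13.4 of red cells (SD, n = 6). Green exceeded red in dissociations 21 and 25, by 12.7 and 29.7 points, and red exceeded green in the other 4, by differences of -9.46 to -2.21. The mean difference was 3.62 ± 14.8 points (exact sign-flip permutation test, n = 6, p = 0.656, adjusted p = 0.738), and it was -4.09 in the 2 DMSO dissociations.

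Progenitors are dividing cells that give rise to other cell types, and the cluster of that name had opposite signs by day. On day 2 its share was lower among green cells in all 3 dissociations, with 1 of 37 green against 4 of 106 red cells in dissociation 20, 1 of 23 against 16 of 145 in 21 and 1 of 55 against 4 of 47 in 22. On days 4 and 7 it was higher among green cells in all 3 dissociations tested, with 19.8% against 1.52% in dissociation 24, 11.9% against 0 of 59 cells in 25 (a count of 0 allows up to 5.08%) and 26.5% against 5.77% in 26. The mean over all 6 was 6.08 ± 12.5 points (exact sign-flip permutation test, p = 0.312, adjusted p = 0.402), 3.15 without dissociation 26 and 3.64 without 24. Dissociations 23 and 27, with few red cells, gave differences of 6.71 and 13.8 points.

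The 5 other clusters differed by means of under 3 points. Developing cnidocytes differed by -1.95 ± 1.97 points, lower among green cells in 5 of 6 dissociations (p = 0.0938, adjusted p = 0.281, exact sign-flip test). Undetermined cells differed by -2.31 ± 2.96 points and Epidermis by -1.75 ± 2.40, each with an exact p of 0.125 and an adjusted p of 0.281. Neural 3 differed by -1.69 ± 2.58 (adjusted p = 0.375) and Secretory, the gland cells, by -1.41 ± 8.51 (adjusted p = 0.750). The 4 clusters that were too small to test held few cells: 12 green, 4 orange and 3 red cells in Muscle, 3, 10 and 14 in Neural 0, 2, 0 and 7 in Neural 4, and 9, 10 and 7 in mucous cells.

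**Figure D2:**
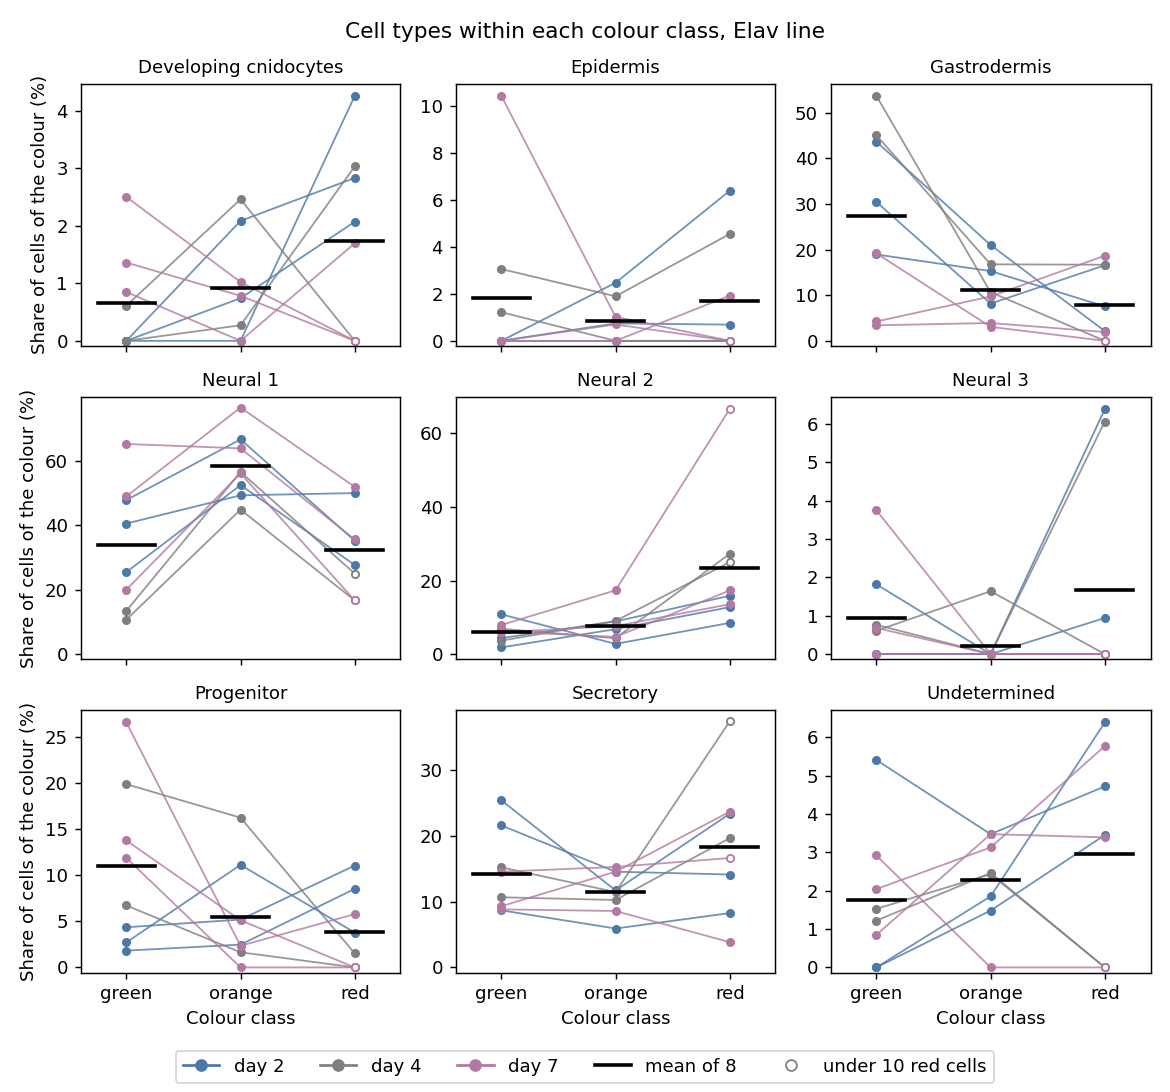
Share of green, orange and red cells in each tested broad cluster (percent of the cells of that colour, vertical axis), with 1 line per dissociation coloured by day and a bar at the mean of 8; open circles mark fewer than 10 red cells. Neural 1 takes 58.3% of orange cells on average against 34.02% of green and 32.3% of red, and Gastrodermis takes 27.3% of green cells against 11.1% of orange and 7.93% of red, over the 8 dissociations.

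Lowering the minimum to 5 cells brought dissociations 23 and 27 back (n = 8, smallest possible p 0.0078125). With 9 clusters, 1 at that value cannot pass alone, while 2 would. Neural 2 was then lower among green cells in 7 of 8 dissociations, by -17.4 ± 18.3 points (exact sign-flip permutation test, p = 0.0156, adjusted p = 0.141), a mean that includes dissociation 27 at -58.8, where 4 of 6 red cells were Neural 2. Gastrodermis was higher in 7 of 8, by 19.4 ± 21.7 points (p = 0.0469, adjusted p = 0.211, exact). Setting green against orange and red together, which leaves no dissociation short of cells, gave 16.5 ± 16.7 points for Gastrodermis (7 of 8 higher, p = 0.0391, adjusted p = 0.164, exact) and -18.6 points for Neural 1 (7 of 8 lower, p = 0.0312, adjusted p = 0.164, exact). No cluster passed in either version (0% of 9), and 2 had an unadjusted p under 0.05 in each. Because shares of a colour sum to the whole, a higher share in 1 cluster lowers the others.

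In the fine annotation 21 of 45 clusters held enough cells, and 0 passed (0%; 2 had an unadjusted p under 0.05, and 14 would have to reach the smallest p for any to pass). Those 2 moved in opposite directions and were both neural. Cluster 4 - Neural 1 was higher among green cells in 6 of 6 dissociations, with 9.75% ± 5.05 against 3.92% ± 3.67 (SD, n = 6). Its differences were 2.45, 12.6, 7.27, 3.82, 4.24 and 4.67 points, with a mean of 5.83 ± 3.66 (exact sign-flip permutation test, p = 0.0312, adjusted p = 0.328). Cluster 29 - Neural 2 was lower among green cells in 6 of 6, with 1.29% ± 1.83 against 5.85% ± 3.16 and a mean difference of -4.56 ± 3.32 (same p and adjusted p). With the minimum of 5 cells, 4 - Neural 1 was higher in 8 of 8 (exact p = 0.0078125, adjusted p = 0.0820). That p is the smallest possible there, and among 21 clusters 1 at that value cannot pass alone.

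The next 4 fine clusters by p spanned several tissues, each with an adjusted p of 0.328 (exact sign-flip test, n = 6). Cluster 3 - Gastrodermis was higher among green cells in 5 of 6 dissociations, by 8.90 ± 9.01 points, and 42 green and 5 red cells of the 6 dissociations belonged to it. Cluster 22 - Neural 2 - WFSa was lower in 5 of 6 and equal in the other, by -3.66 ± 6.40 points. Its mean rests on dissociation 24, at -16.6 points, with the others between -2.44 and 0. The developing cnidocytes, 14 - Cnidocyte - developing, are the broad cluster given above. Cluster 24 - Neural 1 differed by -2.13 ± 2.10 points. Neural 1 thus held fine clusters on both sides, 4 - Neural 1 with a higher and 24 - Neural 1 with a lower mean among green cells.

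**Figure D3:**
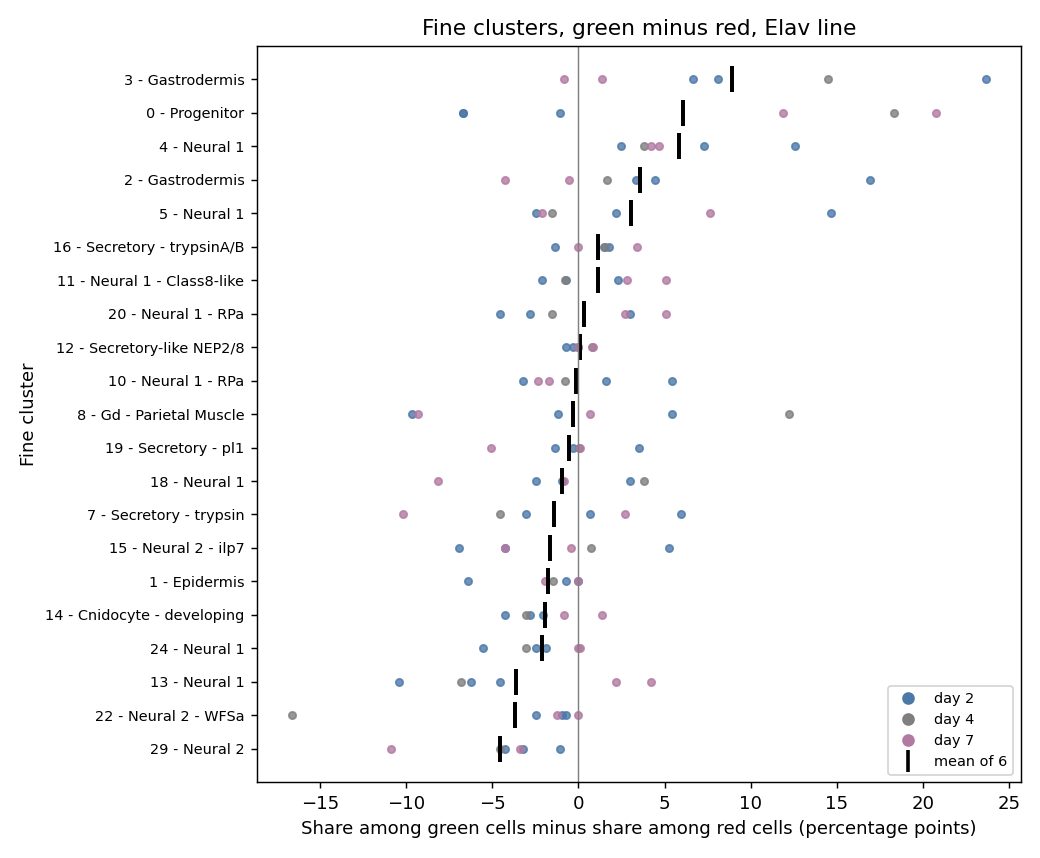
Green minus red share (percentage points, horizontal axis) for the 21 tested fine clusters, with 1 point per dissociation (n = 6) and a bar at the mean. All 6 points lie above 0 for 4 - Neural 1 and below 0 for 29 - Neural 2.

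Orange cells were intermediate in some clusters. Over all 8 dissociations their mean share lay between those of green and red in 5 of 9 clusters (Developing cnidocytes, Gastrodermis, Neural 2, Progenitor and Undetermined). It lay outside that range in Epidermis, Neural 1, Neural 3 and Secretory. No test was made, and with 3 classes orange would rank in the middle of some clusters even if the colours did not differ. In Gastrodermis the means were 27.3% ± 19.0 in green, 11.1% ± 6.26 in orange and 7.93% ± 8.12 in red (SD, n = 8). In Neural 2 they were 5.93% ± 2.76, 7.68% ± 4.50 and 23.4% ± 18.6. In Neural 1 orange stood apart, with 58.3% ± 10.3 against 34.02% ± 19.5 in green and 32.3% ± 13.5 in red. These means include dissociations 23 and 27, with 8 and 6 red cells. Over the 6 dissociations without them, orange was below both other colours in Neural 2, with 5.85% against 5.98% in green and 15.9% in red. In Epidermis it then lay between them, with 0.966% against 0.509% and 2.26%.

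Read by tissue, the 5 neural clusters together took 41.3% ± 19.6 of green, 66.9% ± 11.4 of orange and 61.8% ± 12.1 of red cells (SD, n = 8). Epidermis, Gastrodermis and Muscle together took 30.5% ± 19.6, 12.1% ± 7.11 and 10.0% ± 8.80. The 2 secretory clusters took 14.9% ± 6.35, 12.3% ± 3.30 and 19.6% ± 9.17. Green cells thus had the lowest mean neural share and the highest mean epithelial and contractile share of the 3 colours, with overlapping ranges and no test.

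Orange was then set against green and red together, which was not planned and was chosen after seeing the data. In dissociations 20 to 27 in turn, the Neural 1 share of orange cells was 49.3%, 66.7%, 52.5%, 56.6%, 44.9%, 63.9%, 76.6% and 56.1%. It exceeded the Neural 1 share of the other coloured cells in 8 of 8 dissociations, by 1.75, 29.8, 26.0, 42.6, 32.2, 8.52, 26.8 and 36.2 points. The mean was 25.5 ± 13.8 (SD, n = 8; exact sign-flip permutation p = 0.0078125, the smallest possible, adjusted p = 0.0703). Of the 9 clusters 0 passed (0%) and 1, Neural 1, had an unadjusted p under 0.05. With 9 clusters, 1 at the smallest p cannot pass alone, while 2 would. The mean was 34.2 in the 4 DMSO dissociations and 16.7 in the 4 without stated treatment. Compared without the pairing by dissociation, Neural 1 passed (exact permutation test, adjusted p = 0.0294). That test ignores that the colours of a dissociation share animals, and it can reach smaller p-values than the paired test.

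Among fine clusters 0 of 21 passed in this comparison (0%) and 5 had an unadjusted p under 0.05. Orange exceeded the other colours in 8 of 8 dissociations for 4 - Neural 1, by 7.66 ± 5.18 points, and for 20 - Neural 1 - RPa, by 2.32 ± 1.67 points. It was below them in 8 of 8 for 2 - Gastrodermis, by -5.17 ± 4.77 points. Each of the 3 had the smallest possible p and an adjusted p of 0.0547 (exact sign-flip permutation test, n = 8). With 21 clusters, 3 at that p fall short on their own, while 4 would pass. Within Neural 1 the fine clusters differed in how many of their cells were orange, without a test. The orange share was 72.1% ± 16.2 in 11 - Neural 1 - Class8-like, 67.5% ± 14.3 in 4 - Neural 1 and 43.0% ± 25.0 in 13 - Neural 1 (SD, n = 8 each).

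The second comparison followed the green share of each cell type from day 2 to day 7. The green share of coloured cells had a positive slope on day in all 6 broad clusters with enough cells (at least 5 coloured cells in at least 6 dissociations). The slope passed in Neural 1, Progenitor and Neural 2, which is 3 of the 6 (50.0%). The whole line had a slope of 7.13 points per day, so a pass alone does not set a cluster apart from the rest. The test permutes the days over the 8 dissociations (560 arrangements, two-sided). In each of the 3 the call depended on the settings given below.

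Progenitor changed from nearly no green cells to nearly all green cells. On day 2, 1 of 21, 1 of 24 and 1 of 9 coloured Progenitor cells were green in dissociations 20, 21 and 22. On day 4, 11 of 13 were green in dissociation 23 and 26 of 87 in dissociation 24. On day 7, 14 of 14, 39 of 45 and 33 of 38 were green in dissociations 25, 26 and 27. The means were 6.68% ± 3.85 on day 2 (SD, n = 3), 57.3% ± 38.7 on day 4 (n = 2) and 91.2% ± 7.65 on day 7 (n = 3), and days 2 and 7 did not overlap. The slope was 16.6 points per day (exact permutation p = 0.00714, adjusted p = 0.0214).

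Neural 1 rose from 10.2% ± 2.68 green on day 2 (SD, n = 3) and 15.5% ± 11.5 on day 4 (n = 2) to 41.1% ± 4.83 on day 7 (n = 3). The values were 10.8%, 7.24% and 12.5% on day 2, 23.7% and 7.33% on day 4, and 40.5%, 36.5% and 46.2% on day 7. All day 7 values lay above those of the earlier days. The slope was 6.32 points per day (exact permutation p = 0.00714, adjusted p = 0.0214).

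Neural 2 rose from 10.6% ± 11.3 (SD, n = 3) through 26.3% ± 7.53 (n = 2) to 37.3% ± 10.3 (n = 3), a slope of 5.24 (p = 0.0196 by exact permutation, adjusted p = 0.0393). Its values were 23.5%, 2.78% and 5.56% on day 2, 31.6% and 20.9% on day 4, and 26.9%, 37.5% and 47.5% on day 7. On the logit scale its adjusted p was 0.05, no longer under the threshold.

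Gastrodermis showed no such order. Its green shares were 18.9%, 16.7% and 40.7% on day 2, 87.1% and 44.7% on day 4, and 16.7%, 45.5% and 93.9% on day 7, a slope of 4.72 (p = 0.370 by exact permutation). On day 7 the high value came from the DMSO dissociation and the other 2 had no stated treatment. Secretory cells had a slope of 5.37 (adjusted p = 0.161) and Undetermined cells 8.26 (adjusted p = 0.131).

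**Figure D4:**
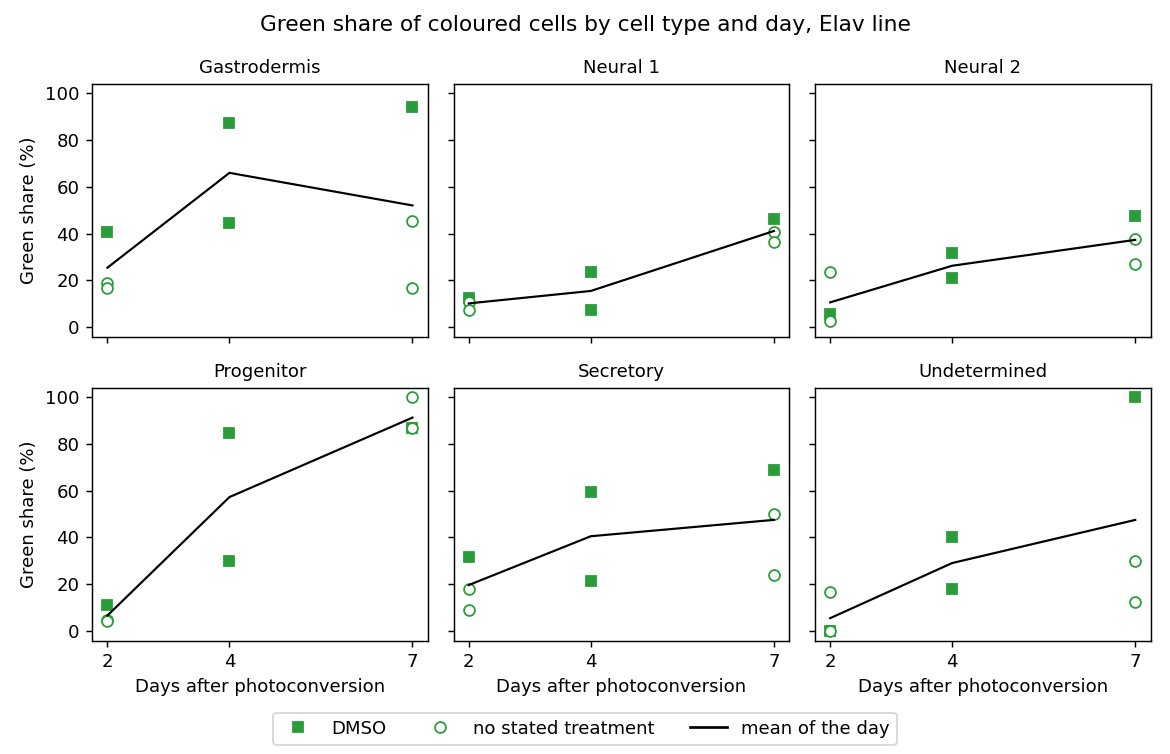
Green share of coloured cells (percent, vertical axis) against day after photoconversion (horizontal axis) in 6 broad clusters, with 1 point per dissociation, filled squares for DMSO, open circles for no stated treatment and a line through the day means. Progenitor goes from 6.68% to 91.2% and Neural 1 from 10.2% to 41.1% between the means of days 2 and 7, while Gastrodermis spans 16.7% to 93.9% on day 7 alone.

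These 3 calls did not survive every setting. With days permuted only within the same medium, 0 of 6 clusters passed (72 arrangements, smallest adjusted p = 0.0625), with slopes of 16.7 for Progenitor, 6.32 for Neural 1 and 5.31 for Neural 2. With green taken as a share of green and red cells alone, 0 of 5 passed (smallest adjusted p = 0.0759). Leaving out dissociation 21 or dissociation 22 ended all 3 calls, leaving out 24 ended those of Progenitor and Neural 2, and leaving out 26 or 27 ended that of Neural 2. All slopes of the 3 clusters were positive in each of these versions.

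The green share of the whole line had its own slope, given above, so each cluster was also compared with the rest of the Elav cells of its dissociation. The Progenitor slope exceeded that of the rest by 10.3 points per day (exact permutation p = 0.00893, adjusted p = 0.0536), and the other 5 clusters differed from the rest by -3.00 to 1.13, with 0 of 6 passed (0%) and 1 unadjusted p under 0.05. Neural 1 and Neural 2, called above, had smaller slopes than the rest, by -1.26 and -2.10 points per day. In level, Neural 1 was less green than the rest in 7 of 8 dissociations, by -17.0 ± 18.4 points (exact sign-flip permutation p = 0.0391, adjusted p = 0.141), and Gastrodermis more green in 7 of 8, by 15.7 ± 21.4 points (p = 0.0703, adjusted p = 0.141). Here too 0 of 6 passed (0%), with 1 unadjusted p under 0.05.

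The red share gave 0 of 6 calls (0%) by day, with 1 unadjusted p under 0.05. All 6 slopes were negative. Progenitor had the steepest, at -7.71 points per day (exact permutation p = 0.0375, adjusted p = 0.189), with means of 43.4% ± 23.8 on day 2, 0.575% ± 0.813 on day 4 and 2.22% ± 3.85 on day 7. Neural 1 went from 27.8% ± 14.2 through 3.95% ± 2.55 to 8.57% ± 6.72 red (SD, n = 3, 2 and 3).

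In the fine annotation 15 clusters could be followed by day. All 15 slopes of the green share were positive and 3 passed (20.0%), with 8 at an unadjusted p under 0.05. The whole line had a slope of 7.13 points per day, and fine clusters were not compared with the rest of the cells. Cluster 13 - Neural 1 went from 3.70% ± 6.42 green on day 2 through 8.93% ± 7.58 on day 4 to 63.2% ± 4.36 on day 7, a slope of 12.3 (p = 0.00357 by exact permutation, adjusted p = 0.0268). Cluster 18 - Neural 1 went from 5.90% ± 5.24 through 19.3% ± 1.05 to 34.8% ± 3.22, a slope of 5.75 (p = 0.00179 by exact permutation, adjusted p = 0.0268). The third was the Progenitor cluster (adjusted p = 0.0357). With days permuted within medium 0 of 15 passed (smallest adjusted p = 0.104), and 0 passed without dissociation 20 or without 21 (smallest adjusted p = 0.0571 in each). Without dissociation 22 there were 2 calls, 13 - Neural 1 and 18 - Neural 1, and the Progenitor call was also lost without 24.

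Whether the green minus red difference itself changed with day was tested over the same 6 dissociations (60 arrangements). The count of calls was 0 of 9 (0%), with 0 under 0.05 before adjustment. The smallest p belonged to Progenitor, with a slope of 4.23 points per day, and developing cnidocytes, with 0.662 points per day, which both had p = 0.05 by exact permutation (adjusted p = 0.225).

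The third comparison asked whether these differences between colours were like those of the other reporter lines. The SoxC line gave 9 dissociations with at least 10 green and 10 red cells and the FoxL2 line 5, all of them with DMSO, against 2 of the 6 in Elav. The mix of days differed too, with most of the SoxC dissociations from day 7, against 3 from day 2 and 2 from day 7 in Elav. The Elav difference for developing cnidocytes was -3.05 ± 1.11 points on day 2 (SD, n = 3) and 0.257 ± 1.56 on day 7 (n = 2). Line, day and medium therefore cannot be told apart here. Against SoxC, 1 of 9 clusters differed (11.1%) and 3 had an unadjusted p under 0.05. That cluster was the developing cnidocytes. In SoxC their share was higher among green than among red cells in 9 of 9 dissociations, by 2.46 to 14.9 points with a mean of 7.10 ± 4.21, and in Elav it differed by -1.95 ± 1.97 (SD, n = 6), within -4.26 to 1.36. The lines differed by -9.05 points (exact permutation of line labels, 5005 arrangements, p = 0.000400, adjusted p = 0.00360), and the ranges of these dissociations did not overlap. Elav dissociations 23 and 27, left out for too few red cells, had differences of 0.610 and 2.5 points. The value of 2.5 lies above the lowest SoxC value of 2.46. With both included the Elav mean was -1.07 ± 2.38 points (SD, n = 8).

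The Elav value rests on 3 green and 11 red cnidocytes in its 6 dissociations, and the SoxC value on 99 green and 9 red ones. Among DMSO dissociations alone (2 Elav) the difference was -10.7 points and did not pass, and 0 clusters did (smallest adjusted p = 0.0818). With 2 Elav dissociations there are few arrangements, so several clusters would have to reach the smallest p for any to pass. That count of 0 therefore does not show that the difference was lost. The count of clusters that differed was 3 with a minimum of 5 cells and 2 with Gastrodermis left out of the totals. It was 4 without dissociation 20, and 2 without 22 or without 24. Neural 3 differed by 4.50 points (adjusted p = 0.0539), Neural 1 by 15.4 (adjusted p = 0.0833) and Gastrodermis by -18.6 (adjusted p = 0.181), without passing. Among DMSO dissociations alone the Gastrodermis difference was 2.63, the opposite sign. For Gastrodermis the mean green minus red difference was 13.7 ± 19.7 in Elav, 32.3 ± 18.6 in SoxC and 41.1 ± 20.8 in FoxL2.

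Against FoxL2, 0 of 9 clusters differed (0%; exact permutation of line labels, 462 arrangements), with 0 under 0.05 before adjustment. Closest were Neural 1, 21.6 points higher in Elav (p = 0.0541, adjusted p = 0.263), and Gastrodermis, at -27.4 points (p = 0.0584, adjusted p = 0.263). With the 2 Elav DMSO dissociations alone the differences were 13.9 for Neural 1 (exact permutation, adjusted p = 0.857) and -6.17 for Gastrodermis (adjusted p = 0.918). So few dissociations leave so few arrangements that this version could hardly pass, and nothing is concluded from its p-values.

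Orange against green and red was compared between lines in the same way, over 8 Elav, 9 SoxC and 8 FoxL2 dissociations, again chosen after seeing the data. The mix of days differed between the lines here too. Of 18 tests, 9 clusters against each line, 5 passed (27.8%). The Neural 1 excess among orange cells was 25.5 ± 13.8 points in Elav, 0.197 ± 1.85 in SoxC and -8.07 ± 10.3 in FoxL2. The base shares were unlike. Neural 1 made up 58.3% of orange and 32.8% of other coloured cells in Elav, 11.4% and 11.2% in SoxC, and 24.5% and 32.6% in FoxL2. The size of a difference in points therefore also depends on how common a cluster is in each line. Elav differed by 25.3 points from SoxC (exact permutation of line labels, p = 0.000123, adjusted p = 0.00222) and by 33.5 from FoxL2 (p = 0.000466, adjusted p = 0.00420). The SoxC values lay between -1.75 and 3.29 and the FoxL2 values between -22.5 and 7.48, so the Elav range of 1.75 to 42.6 overlapped both at its low end.

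The other 3 calls had smaller differences. Epidermis was less frequent among orange than among other coloured cells in Elav, by -1.51 ± 3.17 points, and more frequent in SoxC, by 2.38 ± 2.23, and in FoxL2, by 8.88 ± 7.62. It made up 0.852% of orange cells in Elav, 4.51% in SoxC and 19.5% in FoxL2. Elav differed by -3.90 from SoxC (adjusted p = 0.00703) and by -10.4 from FoxL2 (adjusted p = 0.00653). Progenitor differed by -13.6 from FoxL2 (adjusted p = 0.0179), with -4.62 ± 7.84 in Elav and 9.02 ± 8.78 in FoxL2. Among DMSO dissociations alone 3 of the 5 calls held: Neural 1 differed by 34.05 from SoxC (adjusted p = 0.0252) and by 36.98 from FoxL2 (adjusted p = 0.0476), and Epidermis by -5.49 from SoxC (adjusted p = 0.0252). Epidermis and Progenitor against FoxL2 did not (adjusted p = 0.143 and 0.167).

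**Figure D5:**
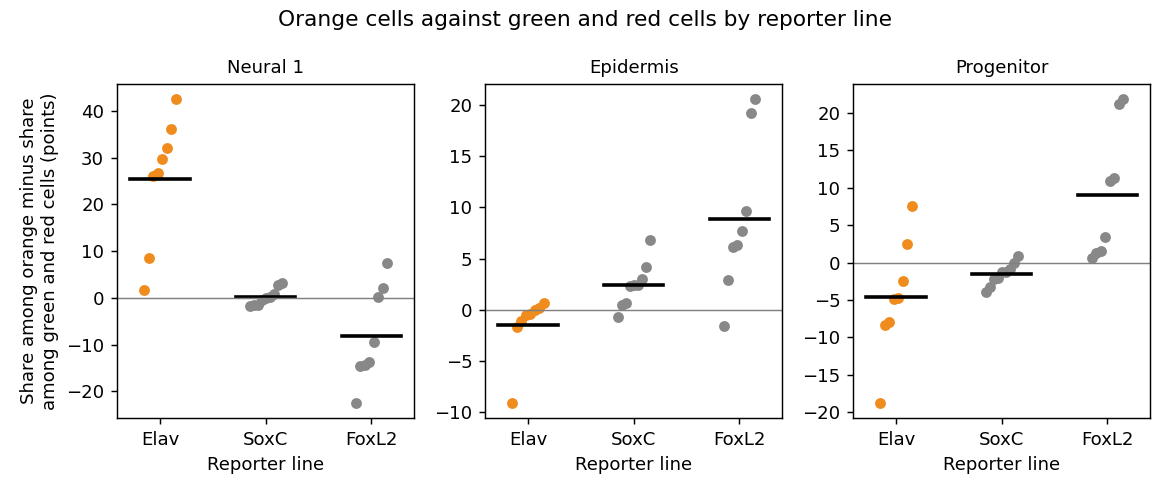
Orange minus green and red share (percentage points, vertical axis) of Neural 1, Epidermis and Progenitor in the Elav, SoxC and FoxL2 lines, with 1 point per dissociation and a bar at the mean. For Neural 1 the mean is 25.5 in Elav, 0.197 in SoxC and -8.07 in FoxL2.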

How the data were processed

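Per the submitters' processing notes, reads were processed with STARsolo and STAR 2.7.10b. The authors deposited a table of cells with line, day, dissociation, medium, cluster and colour class all as categories with no numeric unit. Cell filters, clustering settings and the rule for the colour classes are not given in the sources used here. The line, day, dissociation and medium of the table differed from the labels in 0 cells. Shares were computed per dissociation with python 3.11.15, numpy 2.4.6, scipy 1.17.1 and pandas 2.3.3. Green and red cells were paired by dissociation, since they come from the same dissociated animals. Tests were two-sided exact permutations with Benjamini-Hochberg adjustment over the clusters of a comparison (threshold 0.05), and were tested on simulated data. There the green minus red test with 6 dissociations, and its test by day, missed most changed clusters, so a count of 0 in these does not show that the colours were alike. For the test with 6 dissociations this outcome was largely fixed in advance. The simulation changed fewer clusters than the 6 that must reach its smallest p. The plan named 8 dissociations with 10 cells of each colour, and 6 met it. Intervals are 95% Wilson intervals, and a count of 0 is said to allow up to 3 cells, a limit set apart from the Wilson interval. Both cover counting error alone and not the spread between dissociations or libraries, which was often wider. Every tested broad cluster is named, and of the fine clusters the 6 with the smallest p, since fewer than 3 passed, with ties settled by the larger difference. Other fine clusters were named after their values were seen. Cells and lists were chosen with earlier results of these data known. The well lists and gene annotation were not used here.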

Additional observations from a re-analysis of the deposited data

Results flagged for a closer look

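In 39 sets of values the highest or lowest dissociation was compared with the others, and 6 stood apart. A rate of 1 in 20 would give about 1.95, but that rate assumes independent, normally distributed values. These are differences of shares with many counts of 0, and some sets hold the same cells. The count of 6 therefore does not show an excess over chance. For green minus red, Epidermis in dissociation 22 stood at -6.38 points against -1.92 to 0 in the others, and the fine cluster 1 - Epidermis holds the same cells. There 3 of 47 red and 0 of 55 green cells were epidermal (a count of 0 allows up to 5.45%). Cluster 22 - Neural 2 - WFSa in dissociation 24 stood at -16.6 against -2.44 to 0. Cluster 29 - Neural 2 in dissociation 26 stood at -10.9 against -4.55 to -1.07. For orange minus green and red, Epidermis in dissociation 27 stood at -9.14 against -1.66 to 0.694, where 25 of 240 green cells were epidermal, and Secretory in dissociation 22 stood at -12.8 against -4.80 to 1.06.

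Between lines 6 tests passed: 1 of 9 for green minus red against SoxC, 0 of 9 against FoxL2, and 5 of 18 for orange minus green and red. The orange comparison was chosen after seeing the data. Day and medium were mixed differently in the lines, so these differences cannot be assigned to the line. Some of the calls did not pass among DMSO dissociations alone, as given above. For green minus red, developing cnidocytes in Elav minus SoxC differed by -9.05 points. For orange minus green and red, Neural 1 differed by 25.3 from SoxC and by 33.5 from FoxL2, Epidermis by -3.90 and -10.4, and Progenitor by -13.6 from FoxL2.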

How the results depend on the processing

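Of the alternative settings other than leaving out a dissociation, 236 values kept their direction and side of the threshold, 17 were weaker, 4 stronger, 9 reversed and 9 counts moved; of those that left out 1 dissociation, 317, 23, 5, 3 and 8 did. These tallies include sign-flip tests over 5 or fewer dissociations, which cannot pass, so for such values only the direction could change. They are therefore no measure of how firm the results are. For green minus red, setting green against orange and red reversed Epidermis (0.790), Neural 1 (-18.6), Neural 3 (0.416), Secretory (1.74) and 4 - Neural 1 (-3.04). A minimum of 5 cells reversed Epidermis (0.144), DMSO dissociations alone Neural 1 (-4.09), and leaving out the largest cluster Secretory (0.234). Leaving out 1 dissociation gave Secretory -3.19 to 1.19, Neural 1 -1.59 to 6.24, Gastrodermis 8.14 to 19.3, Progenitor 3.15 to 8.64, Neural 2 -12.3 to -7.79, Epidermis -2.10 to -0.821, Neural 3 -2.16 to -0.966, Undetermined -3.08 to -1.50 and developing cnidocytes -2.61 to -1.48. Without the replicate block, the pairing by dissociation, 1 cluster passed for green minus red and 1 for orange minus green and red, against 0 with it, and no other call changed. The green share by day passed in 0 clusters as a share of green and red alone, 0 with days permuted within medium and 0 to 4 when 1 dissociation was left out; its fine version gave 0 within medium and 0 to 4. Elav against SoxC passed in 0 clusters with DMSO alone (Gastrodermis reversed, 2.63), 3 with a minimum of 5 cells, 2 without Gastrodermis and 1 to 4 with 1 dissociation left out. With DMSO alone only 2 Elav dissociations entered, so several clusters would have to reach the smallest p for any to pass. The orange comparison between lines passed in 3 with DMSO alone. The cause was not tested. Counts of green minus red calls with 1 dissociation left out or in a single medium were not run, because 5 or fewer dissociations cannot pass. The number of cells, 6 to 8 red in dissociations 23 and 27, limits all comparisons with red.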

Other observations

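The 57 Elav cells without a colour class came mostly from dissociation 22 (32 cells) and dissociation 27 (19 cells). Gastrodermis held 20 of them, or 35.1% (95% Wilson interval 24.0% to 48.1%), against 17.0% of coloured cells. Secretory held 17, or 29.8% (19.5% to 42.7%), against 12.6%. Neural 1 held 9, or 15.8% (8.54% to 27.4%), against 43.5%. The intervals cover counting error only, and 51 of the 57 cells come from 2 dissociations, so no test was made.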
